A study of Mus musculus with 41 samples.

Results

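The genes described here are 10 members and relatives of the AP-1 family of transcription factors, *Fos*, *Fosb*, *Fosl1* and *Fosl2* (FOS family), *Jun*, *Junb* and *Jund* (JUN family), and *Atf3*, *Batf* and *Maff*, out of 21911 protein-coding genes of the mouse. They were chosen by name. For each, CUT&RUN (CNR) peaks were counted where they overlapped the gene body or the 50 kb to either side of it, which is called its locus below. CNR releases and sequences the DNA around an antibody-bound protein, so that a peak marks a place where the protein sat on chromatin. AP-1 factors are basic leucine zipper proteins that bind DNA as pairs. JUN proteins pair with each other or with FOS proteins, FOS proteins need a partner, and the pairs bind the palindrome TGACTCA. In the epidermis AP-1 is known for immediate responses to stress and growth signals and for the control of keratinocyte genes.

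The skin samples were epidermal stem cells (EpdSCs) of male CD1 mice carrying K14rtTA; TRE-myc-Sox9, sorted from cells without endothelial, immune, melanocyte and fibroblast surface markers. In them doxycycline (DOX) switches on MYC-tagged SOX9 through the *Krt14* promoter. SOX9 CNR was done at D0 (21 postnatal days old, no DOX) and after 1, 2, 6 and 12 weeks (W1 to W12) of DOX, and CNR of MLL3/4, histone methyltransferases of enhancers, at D0, W1 and W2. Postnatal age was 28 days in the W1 group, 35 in the W2 group and 63 in the W6 group. For W12, skin was carried as a graft on immunocompromised hosts, so that age and grafting cannot be told apart from the weeks of DOX. All of these groups, D0 included, carried both transgenes. In culture, EpdSC keratinocytes with Krt14-rtTA carried DOX-inducible WT-SOX9, SOX9 lacking its transactivation domain (dTA, noTA in the labels) or SOX9 lacking its DNA-binding HMG domain (dHMG, noHMG in the labels). They were assayed for the MYC tag and for MLL3/4, as WT-SOX9 without DOX and as all 3 forms with DOX (1 µg/ml). Each group had 2 samples and 1 pooled peak list, called on both samples together, so that no spread between replicates and no test between groups exists. The groups of WT-SOX9 without DOX had a list of replicate 1 as well, which was used as an alternative only. Shares of peaks have 95% Wilson intervals (CI), which cover counting error only. JUN CNR of the same series was not analysed here.

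Depth differed between lists. The lists of SOX9 CNR implied 13.1 to 32.5 M fragments, and those of the MYC tag 4.04 to 6.09 M, while the depth of the MLL3/4 lists is unknown. SOX9 and MYC-tag peaks are given in RPKM (fragments scaled to length and depth, at the highest point of the peak), and were listed by the authors only above 1800 RPKM. MLL3/4 peaks have unscaled coverage, which was not compared between lists. Fewer cells with a bound site and less protein at the site in each cell cannot be told apart in such bulk samples. As a check of the cells, 6 of 6 epidermal stem cell genes carried an MLL3/4 peak within 5 kb at D0, against 3 of 6 genes of cells that the sort removes and 2 of 6 of melanocytes, fibroblasts and immune cells. A peak is not expression, so this check is a weak one.

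The loci measured 102 to 148 kb and differed in their neighbours. *Fos*, *Fosl2* and *Jun* had no other protein-coding gene body in the locus, *Atf3* had 1, *Batf* and *Maff* 2 each, *Jund* 5, *Fosb* 7, *Junb* 9 and *Fosl1* 11. Merging the 5 SOX9 lists gave 74 SOX9 sites at the 10 genes, of 28559 in the genome. At 38 of the 74 the nearest protein-coding start was that of the AP-1 gene itself. This held for 10 of 10 sites at *Fos* but for 1 of 8 at *Fosl1* and 1 of 6 at *Jund*, where most sites were nearer to the start of a neighbour.

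The sequences below reach 50 bp to each side of the SOX9 maximum, as read on the plus strand of GRCm38.p6 (mm10), with matches to 4 words in capitals, searched on both strands. The AP1 word is TGACTCA. The CRE word, which CREB and ATF factors bind, is TGACGTCA. The SOX word is CCATTGT, in which the first base may also be G and the third T. The RUNX word, a RUNX factor's sequence, is AACCACA. None of the windows printed holds both an AP1 and a SOX word. Windows that were not printed do, namely those of *Fosl2*-s5, *Fosl2*-s12, *Atf3*-s2 and *Maff*-s1. The first 5 are the sites that appeared only at W6 or W12 and held an AP1 word.

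Fosb-s2, chr7:19344407-19344507: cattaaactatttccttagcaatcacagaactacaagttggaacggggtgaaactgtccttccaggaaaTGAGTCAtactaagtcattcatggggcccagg
Fosl2-s7, chr5:32177022-32177122: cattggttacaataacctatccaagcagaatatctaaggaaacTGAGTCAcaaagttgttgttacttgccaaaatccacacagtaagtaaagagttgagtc
Jun-s1, chr4:95084130-95084230: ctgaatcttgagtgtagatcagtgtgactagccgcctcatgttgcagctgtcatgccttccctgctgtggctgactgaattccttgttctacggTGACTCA
Jun-s4, chr4:95001550-95001650: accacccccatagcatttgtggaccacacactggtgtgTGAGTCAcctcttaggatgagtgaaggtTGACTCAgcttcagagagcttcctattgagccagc
Junb-s5, chr8:84985653-84985753: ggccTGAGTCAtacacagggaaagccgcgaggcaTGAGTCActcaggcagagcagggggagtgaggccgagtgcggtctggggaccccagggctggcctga

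The next 3 are sites listed at each of W1, W2, W6 and W12 that held an AP1 or SOX word outside untranslated regions, among them *Fosl2*-s8, the highest SOX9 site of all 10 genes.

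Fosb-s6, chr7:19316906-19317006: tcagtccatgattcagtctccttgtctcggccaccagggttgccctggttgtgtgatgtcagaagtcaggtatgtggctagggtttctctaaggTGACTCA
Fosl2-s8, chr5:32183224-32183324: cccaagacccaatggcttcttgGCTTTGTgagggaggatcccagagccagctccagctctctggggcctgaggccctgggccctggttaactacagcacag
Fosl2-s11, chr5:32192174-32192274: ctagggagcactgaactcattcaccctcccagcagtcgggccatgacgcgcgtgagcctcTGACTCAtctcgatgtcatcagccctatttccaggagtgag

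The last 2 are the 250 bases upstream of a RefSeq start (GRCm38.p6), read 5′ to 3′ on the strand of the gene. *Jun* is shown because SOX9 was listed at its start in all 5 lists, and *Maff* (its middle RefSeq start) because this promoter held the CRE word.

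Jun promoter, chr4:95052223-95052472, minus strand: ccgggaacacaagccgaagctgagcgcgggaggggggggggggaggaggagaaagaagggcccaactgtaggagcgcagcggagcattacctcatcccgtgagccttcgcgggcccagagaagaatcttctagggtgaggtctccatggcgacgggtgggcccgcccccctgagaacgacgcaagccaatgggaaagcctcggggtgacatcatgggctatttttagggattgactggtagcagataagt
Maff promoter, chr15:79347270-79347519, plus strand: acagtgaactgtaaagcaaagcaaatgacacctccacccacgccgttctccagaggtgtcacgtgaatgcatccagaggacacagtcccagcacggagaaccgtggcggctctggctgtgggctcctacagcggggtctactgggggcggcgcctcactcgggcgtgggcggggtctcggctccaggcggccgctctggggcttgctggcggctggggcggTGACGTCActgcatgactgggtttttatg

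The AP1 word stood in 15 of the 74 site windows (20.3%, 95% CI 12.7 to 30.8), against 20% of all SOX9 sites. The SOX word stood in 12 (16.2%, 95% CI 9.53 to 26.2), against 17.4%. In windows of 100 bp to each side the AP1 word stood in 32.4%, against 28.9%, and in whole sites in 41.9%, against 39.9%, with the SOX word in 36.5%, against 47.2%. In the shorter windows CRE and RUNX words stood in 0 of 74, against 0.399% and 2.58% of all SOX9 sites. Of the upstream promoters of all genes in the RefSeq table, 4.46% held an AP1, 1.55% a CRE, 14.0% a SOX and 4.40% a RUNX word, and the table held 9 of the 10 members. Only 1 member besides *Maff* had a word there, *Batf* with 1 RUNX word. A match of letters is a description of these windows and not a binding site.

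SOX9 peaks were few at the AP-1 loci before induction, when the whole list held 792, and were listed at every one of them at W2. Per Mb, the D0 peaks were 2.65 at the loci and 0.291 in the genome, and the W2 peaks 56.5 and 6.85. At D0, *Fosl1*, *Jun* and *Atf3* had 1 SOX9 peak each and the other 7 genes none. All genes together had 38 at W1 and 64 at W2, then 52 at W6 and 19 at W12. At least 1 peak was listed for 3 of 10 members at D0 (6.03% of all protein-coding genes), for 9 at W1 (52.4%), for 10 at W2 (57.5%), for 10 at W6 (58.7%) and for 9 at W12 (39.8%). Above 3600 RPKM it was 0 members at D0, 5 at W1 and 0 at W12, and for W12 it was 4 both with 10 kb to each side and in the upper part of the lists by total signal. The median member had 3.5 peaks at W1 and 7 at W2, and the median protein-coding gene 1 at each.

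Within the FOS family, *Fos*, the immediate early gene that names it, had 0, 6, 7, 7 and 2 SOX9 peaks at D0, W1, W2, W6 and W12. *Fosb*, its close relative, had 0, 4, 5, 7 and 2. *Fosl1*, which encodes FRA1, had 1, 5, 8, 6 and 1, and *Fosl2*, which encodes FRA2, had 0, 7, 12, 9 and 4. *Fosl2* thus had the most peaks of the 10 genes at W2, W6 and W12 and shared the most at W1 with *Atf3*. The counts of *Fos* and *Fosb* were the same or higher at W6 than at W2, while those of *Fosl1* and *Fosl2* were lower.

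Among the JUN genes, *Jun* had 1, 2, 4, 4 and 3 peaks, *Junb* had 0, 3, 7, 5 and 2, and *Jund* had 0, 3, 7, 4 and 0. *Jund*, often the most steadily expressed of the JUN genes, was therefore the only member without a SOX9 peak at W12. *Jun* and *Batf* were the members whose count at W12 was nearest to that at W2. *Atf3*, a stress-induced gene of the ATF family, had 1, 7, 9, 6 and 2 peaks. *Maff*, a small MAF protein without a transactivation domain, had 0, 1, 4, 3 and 2. *Batf*, known chiefly from lymphocytes, had the fewest, with 0, 0, 1, 1 and 1.

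**Figure D1:**
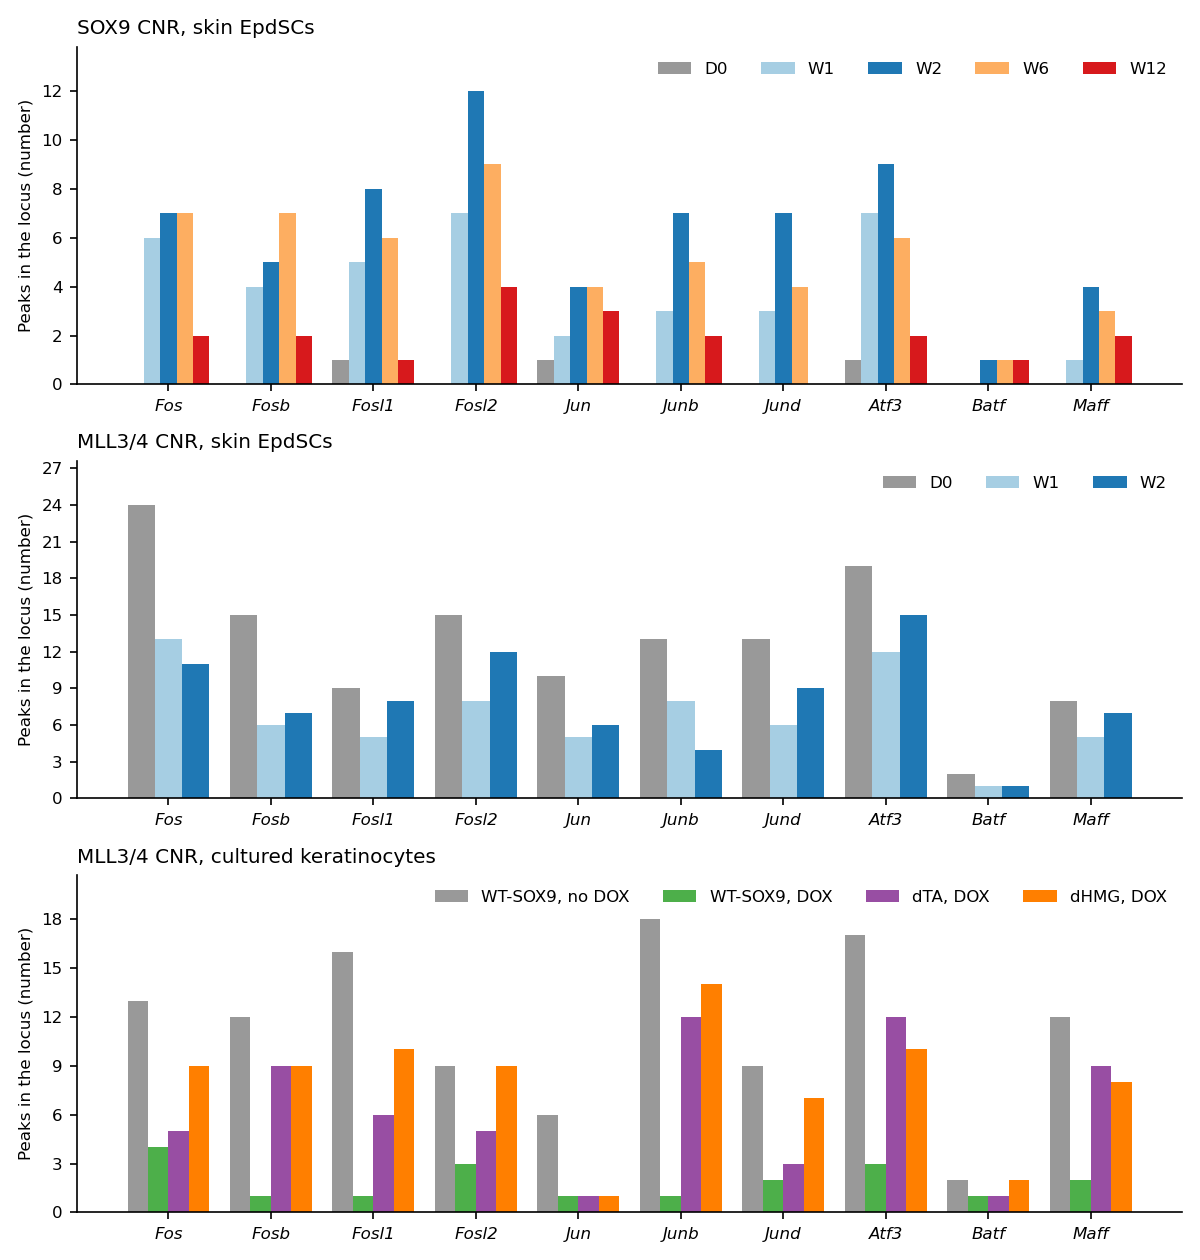
Number of peaks in the locus of each gene (y axis) for SOX9 CNR at 5 time points and MLL3/4 CNR at 3 in skin EpdSCs, and for MLL3/4 CNR in 4 groups of cultured keratinocytes. Each bar is 1 pooled list and has no error bar. *Fosl2* reached 12 SOX9 peaks at W2, and all 10 genes had fewer MLL3/4 peaks at W1 and W2 than the *Fos* high of 24 at D0 and than their own D0 count.

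From W1 to W2 the count was higher at 10 of 10 AP-1 loci, against 31.3% of all protein-coding genes. That base includes genes without any SOX9 peak, as 57.5% of all protein-coding genes had a W2 peak. In all, the W2 peaks came to 168% of the number at W1, against 119% for the whole lists. The W2 list was the shallowest of the SOX9 lists, at 13.1 M fragments, and the W1 list had 17.4 M; what part this depth had was not tested. With lists of equal length by total signal, 8 of 10 members still had more peaks at W2, and with a maximum above 3600 RPKM 6 of 10. At the 34 sites listed at both times, the maximum was higher at W2 at 30 sites, with a median ratio of 1.43, against 71.3% and 1.20 for the 12069 such sites of the genome. *Fos*-s4, 18.4 kb upstream of *Fos* (chr12:85454678-85455981), for example stood at 3342 RPKM at W1 and 6188 RPKM at W2. *Jun*-s2, in an intron of a non-coding gene 24.2 kb upstream of the *Jun* start (chr4:95075130-95077032), stood at 3457 RPKM and 6265 RPKM.

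Toward W12 fewer SOX9 peaks were listed at the AP-1 loci. The count was lower at W12 than at W6 at 9 of 10 members, against 81.9% of the protein-coding genes that had a W6 peak, and lower than at W2 at 9 of 10, against 81.1%. The members' W12 peaks came to 29.7% of their W2 peaks, and the whole W12 list to 52.2% of the W2 list. Of the 58 sites with a W2 peak, 12 also had a W12 peak (20.7%, 95% CI 12.3 to 32.8), against 33.1% in the genome, a value just outside that interval. With lists of equal length, where the whole lists are equal in number by construction, the members' W12 peaks came to 54.3% of their W2 peaks. This share was 16.7% with 10 kb to each side, 12.1% in the upper part of the lists and 0% above 3600 RPKM. The size of this share thus rested on these choices. At the 16 sites listed at both W6 and W12, the maximum was lower at W12 at all but 2, with a median ratio of 0.718, against 0.708 for such sites in the genome.

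**Figure D2:**
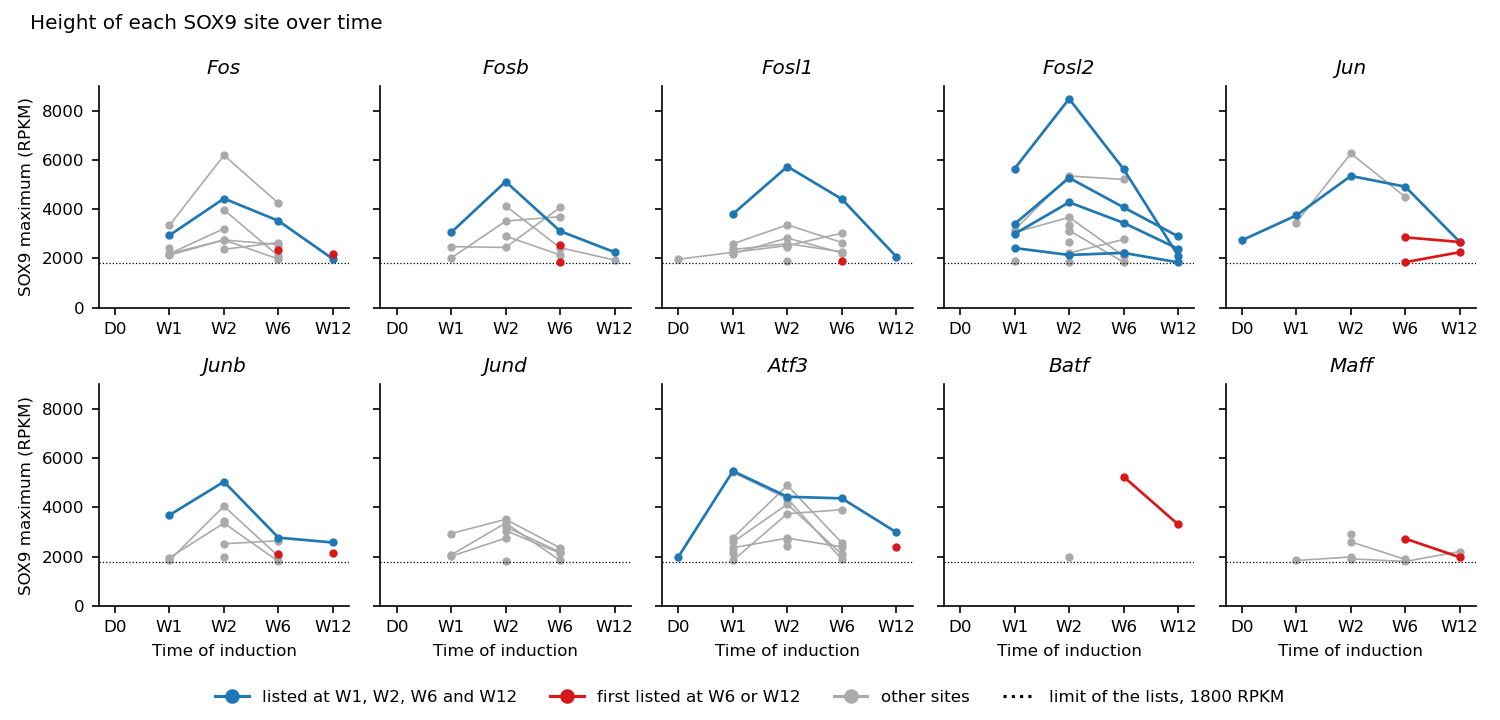
Maximum of SOX9 CNR in RPKM (y axis) at each of the 74 sites, by time of induction (x axis), in 1 panel per gene. Lines join the points of a site (blue, listed from W1 through W12; red, late; grey, other), and a missing point means no listed peak above 1800 RPKM (dotted line). *Fosl2*-s8 reached 8480 RPKM at W2, and the late *Batf*-s1 site 5247 RPKM at W6.

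At 8 of the 10 genes the highest SOX9 maximum was that of W2, and the matching share of all protein-coding genes was not computed. Of sites in the genome listed at both times, 71.3% were higher at W2 than at W1, and 34.4% were higher at W6 than at W2. The highest of all was at *Fosl2*-s8, in intergenic DNA 47.5 kb downstream of the *Fosl2* start (chr5:32182921-32183774), whose SOX9 maximum was 5647 RPKM (W1), 8480 RPKM (W2), 5625 RPKM (W6) and 2114 RPKM (W12). *Jun*-s2 (6265 RPKM), *Fos*-s4 (6188 RPKM) and *Fosb*-s6 (5119 RPKM, 6.91 kb upstream of *Fosb*) were highest at W2 too. The highest site of the *Fosl1* locus, *Fosl1*-s8, had 5730 RPKM and lay in the promoter of *Mus81*. That of *Junb*, *Junb*-s1, had 5042 RPKM in the promoter of *Asna1*. At *Jund* it was *Jund*-s2 with 3514 RPKM, in the promoter of *Lsm4*, and at *Maff* it was *Maff*-s3 with 2903 RPKM, in the promoter of *Pla2g6*. For *Fosl1*, *Junb*, *Jund* and *Maff* the tallest signal thus lay beside another gene's start. The exceptions in time were *Atf3*-s5, highest at W1 (5474 RPKM), and *Batf*-s1, highest at W6 (5247 RPKM).

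Starts of the AP-1 genes were frequent places of SOX9. A peak within 1 kb of a GENCODE or RefSeq start was listed for 1 member at D0 (0.607% of protein-coding genes), for 7 at W1 (12.8%), for 8 at W2 (18.1%), for 6 at W6 (14.9%) and for 2 at W12 (3.66%). The *Jun* start had 2736 RPKM at D0, and then 3746 RPKM (W1), 5348 RPKM (W2), 4911 RPKM (W6) and 2666 RPKM (W12). It was the only start of the 10 with a listed SOX9 peak before induction, and it kept a peak throughout. The paper describes EpdSCs as SOX9-negative. Of all D0 peaks, 8.21% held a SOX word in their window, against 18.4% at W1, and 45.5% an AP1 word, against 16.2%. Whether D0 peaks are background of the antibody was not tested. The *Fosl2* start had 2996 RPKM (W1), 4278 RPKM (W2), 3442 RPKM (W6) and 2390 RPKM (W12). The *Fos* start was listed at W1 (2190 RPKM) and W2 (3209 RPKM) and no longer at W6, the *Maff* start likewise at W1 (1844 RPKM) and W2 (1986 RPKM).

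*Junb* had 1844 RPKM at W1, 4049 RPKM at W2 and 2015 RPKM at W6 within 1 kb of its start, and *Fosl1* had 2190 RPKM, 2827 RPKM and 2225 RPKM. *Jund* was listed at W2 (3209 RPKM) and W6 (2183 RPKM) only. *Atf3* depended on the annotation. Its GENCODE start, the far upstream one, had no peak in any SOX9 list, while its RefSeq start, 34.7 kb further into the gene, had 2363 RPKM at W1, 2750 RPKM at W2 and 2393 RPKM at W6. *Fosb* and *Batf* had no SOX9 or MLL3/4 peak at a start at any time in vivo.

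Of the 74 sites, 3 were first listed at D0, then 34 new ones at W1, 24 at W2, 10 at W6 and finally 3 at W12. The share first listed at W2 was 32.4% (95% CI 22.9 to 43.7), against 19.9% of all SOX9 sites, and the late share, first listed at W6 or W12, was 17.6% (95% CI 10.6 to 27.8), against 25.5%. The interval of the former did not reach the genome's share and that of the latter did. Late sites stood at 9 of the 10 genes, against 33.1% of protein-coding genes, with *Jund* as the exception. With 10 kb to each side they stood at 3 genes, and above 3600 RPKM at 2. In the upper part of the lists by total signal they stood at 3, where the late share was 8.57% (95% CI 2.96 to 22.4), against 25.2%. The 33.1% of protein-coding genes holds for loci with 50 kb to each side and full lists, and was not computed for these alternatives.

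**Figure D3:**
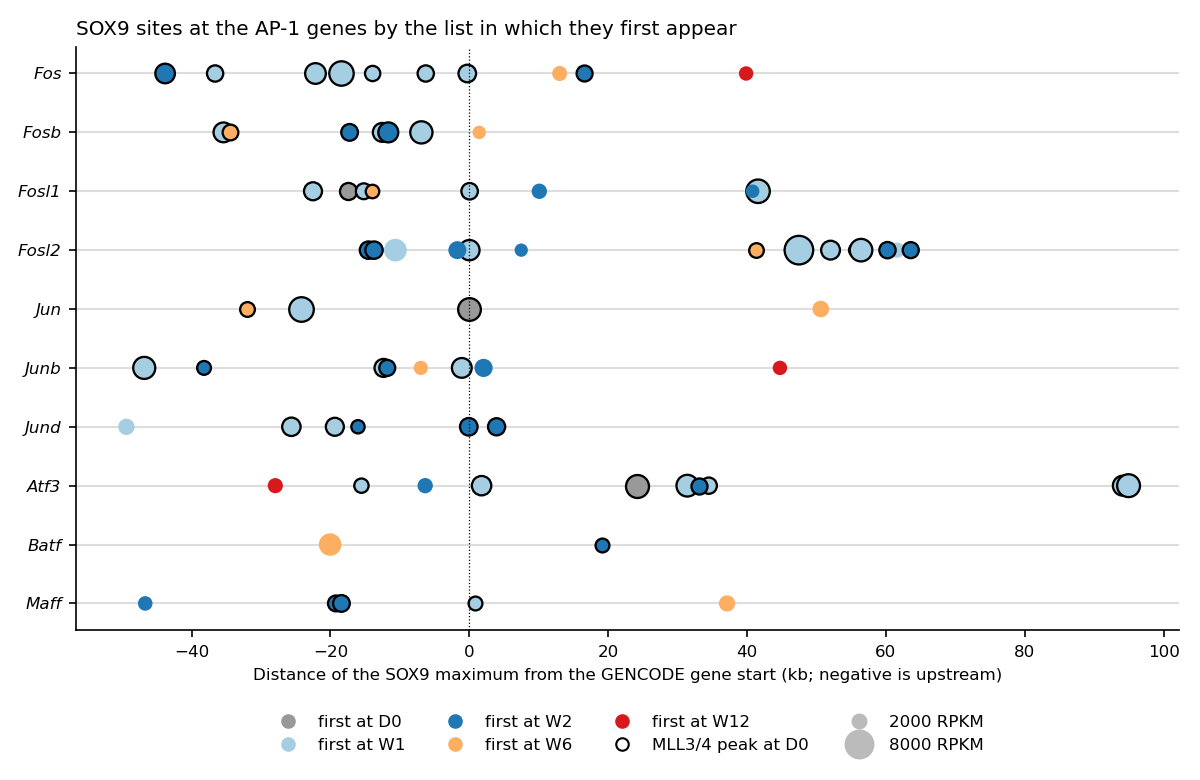
SOX9 sites at the 10 genes (rows) by distance in kb of the SOX9 maximum from the GENCODE start of the gene (x axis, negative is upstream). Colour gives the list in which a site first appeared, area the highest RPKM, and a black ring an MLL3/4 peak at D0. Rings surround 55 of the 74 sites but 4 of the 13 late ones (orange and red).

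The 13 late sites were low, except at *Batf*. *Batf*-s1, in intergenic DNA 20.1 kb upstream of *Batf* (chr12:85666355-85667381), went from no peak at D0, W1 and W2 to 5247 RPKM at W6 and 3309 RPKM at W12. It was the highest late site, with no MLL3/4 peak at D0, W1 or W2 and no word in its window. The others had their maximum between 1847 RPKM and 2854 RPKM. *Jun*-s4, in an intron of a non-coding gene 50.6 kb downstream of the *Jun* start (chr4:95001435-95001799), with 2 AP1 words, had 2854 RPKM at W6 and 2666 RPKM at W12. *Jun*-s1, 32.0 kb upstream (chr4:95084055-95084446), had 1847 RPKM at W6 and 2252 RPKM at W12. *Maff*-s5, in an intron of *Tmem184b* 37.1 kb downstream of the *Maff* start (chr15:79383654-79383909), had 2729 RPKM and 1976 RPKM.

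These 4 were the late sites listed at both W6 and W12. Late sites of W6 alone were *Fos*-s8 (2351 RPKM, 13 kb downstream of the start), *Fosb*-s2 (2561 RPKM, in the promoter of *Ercc1*), *Fosb*-s7 (1847 RPKM, in a *Fosb* exon), *Fosl1*-s4 (1889 RPKM), *Fosl2*-s7 (2225 RPKM, 41.3 kb downstream) and *Junb*-s5 (2099 RPKM, 6.99 kb upstream). Late sites of W12 alone were *Fos*-s10 (2160 RPKM), *Junb*-s8 (2160 RPKM) and *Atf3*-s1 (2390 RPKM). Most of the 13 were thus low and listed at 1 time only.

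The AP1 word stood in 5 of the 13 late windows (38.5%, 95% CI 17.7 to 64.5), against 31.2% of late sites in the genome. Among the sites first listed at W1 it stood in 5 of 34 (14.7%), against 15.8%. *Junb*-s5 and *Jun*-s4 each held it more than 1 time, as the sequences above show. In the genome late sites held the word more often as well, and the interval of the 13 late sites was too wide to separate them from the early ones.

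10 sites were listed at each of W1, W2, W6 and W12 (13.5%, 95% CI 7.51 to 23.1), against 17.9% of all SOX9 sites. They lay at 7 members, against 27.2% of protein-coding genes. *Fosl2* held 4 of them, *Fosl2*-s5 at its start, *Fosl2*-s8, *Fosl2*-s11 (56.4 kb downstream, 5271 RPKM at W2) and *Fosl2*-s13 (61.6 kb downstream, 2139 RPKM at W2). *Fos*, *Fosb*, *Fosl1*, *Jun*, *Junb* and *Atf3* held 1 each, which were *Fos*-s3, *Fosb*-s6, *Fosl1*-s8, *Jun*-s3 at the start, *Junb*-s1 and *Atf3*-s5. The last, in an *Atf3* intron (chr1:191192900-191194449), was also listed at D0, with 1998 RPKM, then with 5474 RPKM (W1), 4431 RPKM (W2), 4366 RPKM (W6) and 2987 RPKM (W12). *Fosl1*-s2, the third site with a D0 peak (1968 RPKM), was listed through W6 but not at W12.

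SOX9 at the AP-1 loci lay mostly where MLL3/4 had been before induction. Of the 74 sites, 55 overlapped an MLL3/4 peak of D0 (74.3%, 95% CI 63.3 to 82.9), against 53.7% of all SOX9 sites, where with 10 kb to each side it was 66.7% and its interval held the genome's share. At W1 the share was 55.4% (95% CI 44.1 to 66.2), against 59.8%, and at W2 63.5% (95% CI 52.1 to 73.6), against 60.1%. Among the sites first listed at W1, 31 of 34 lay on D0 MLL3/4 peaks (91.2%, 95% CI 77.0 to 97.0), against 66.4%. Among the late sites it was 4 of 13 (30.8%, 95% CI 12.7 to 57.6), against 19.9%, and 8 of the 13 had no MLL3/4 peak at D0, W1 or W2 (61.5%, 95% CI 35.5 to 82.3), against 68.0%. MLL3/4 at W6 and W12 was not analysed here.

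Sites that lay on MLL3/4 at D0 but not at W1 made up 23.0% of the members' sites (95% CI 14.9 to 33.7), against 10% in the genome. Sites that lay on MLL3/4 at W1 or W2 but not at D0 made up 6.76% (95% CI 2.92 to 14.9), against 20.7%. The *Fosl2* start is a case of the former, with a D0 and a W2 peak of MLL3/4 but none at W1, and *Fosl1*-s5 at the *Fosl1* start is another. *Junb*-s7, 2.05 kb downstream of the *Junb* start, is a case of the latter, with an MLL3/4 peak at W1 alone.

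MLL3/4 itself had fewer peaks after induction at each of the 10 genes, and at all 3 times the AP-1 loci held more of them per length than the genome. At D0 the density was 113 peaks per Mb of the loci, against 13.6 per Mb of the genome, at W1 60.9 against 11.6 and at W2 70.6 against 10.7. The 128 peaks of D0 became 69 at W1 and 80 at W2. That was 53.9% and 62.5% of the D0 number, against 85.1% and 79.0% for the whole lists. In the FOS family, *Fos* had 24 peaks of MLL3/4, then 13 at W1 and 11 at W2. In the same order of lists, *Fosb* had 15, 6 and 7, *Fosl1* had 9, 5 and 8, and *Fosl2* had 15, 8 and 12. Among the JUN genes, *Jun* had 10, 5 and 6, *Junb* 13, 8 and 4, and *Jund* 13, 6 and 9. *Atf3* had 19, 12 and 15, *Maff* 8, 5 and 7, and *Batf* 2, 1 and 1.

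The count was lower at W1 than at D0 at 10 of 10 members, against 67.3% of the protein-coding genes that had a D0 peak, and it was lower at W2 at 10 of 10, against 68.3%. It was higher at W1 than at D0 at 0 of 10, against 16.8% of all protein-coding genes, with or without a peak. From W1 to W2 it was higher at 7 of 10, against 26.6% on the same base, with *Fos* and *Junb* lower and *Batf* equal. At W1 the direction held in at least 9 of 10 members under every alternative tried for it, and at W2 in at least 7 of 10.

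Gained MLL3/4 peaks made up a smaller share of the later list at the AP-1 loci than in the genome, but were more per length. Of the 128 D0 peaks, 67 had no W1 peak (52.3%, 95% CI 43.7 to 60.8), against 48.5% of the whole D0 list, and 62 had no W2 peak (48.4%, 95% CI 40.0 to 57.0), against 48.7%. Of the 69 W1 peaks, 9 were gained (13%, 95% CI 7.02 to 23.0), against 39.7% of the whole W1 list. At W2 it was 15 of 80 (18.8%, 95% CI 11.7 to 28.7), against 35.7%. Per Mb, the gained peaks were 7.94 at the loci and 4.59 in the genome at W1, and 13.2 and 3.83 at W2. The intervals of the shares lost held the genome's share, except at W1 in the upper part of the lists by total signal, where 60.3% were lost (95% CI 48.8 to 70.7), against 45.7%. Those of the shares gained lay below it, but held it with 10 kb to each side, at 22.2% at W1 (95% CI 10.6 to 40.8) and 24.1% at W2 (95% CI 12.2 to 42.1), and at W2 also for nearest peaks alone, at 22% (95% CI 12 to 36.7). Each interval treats neighbouring peaks as independent.

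**Figure D4:**
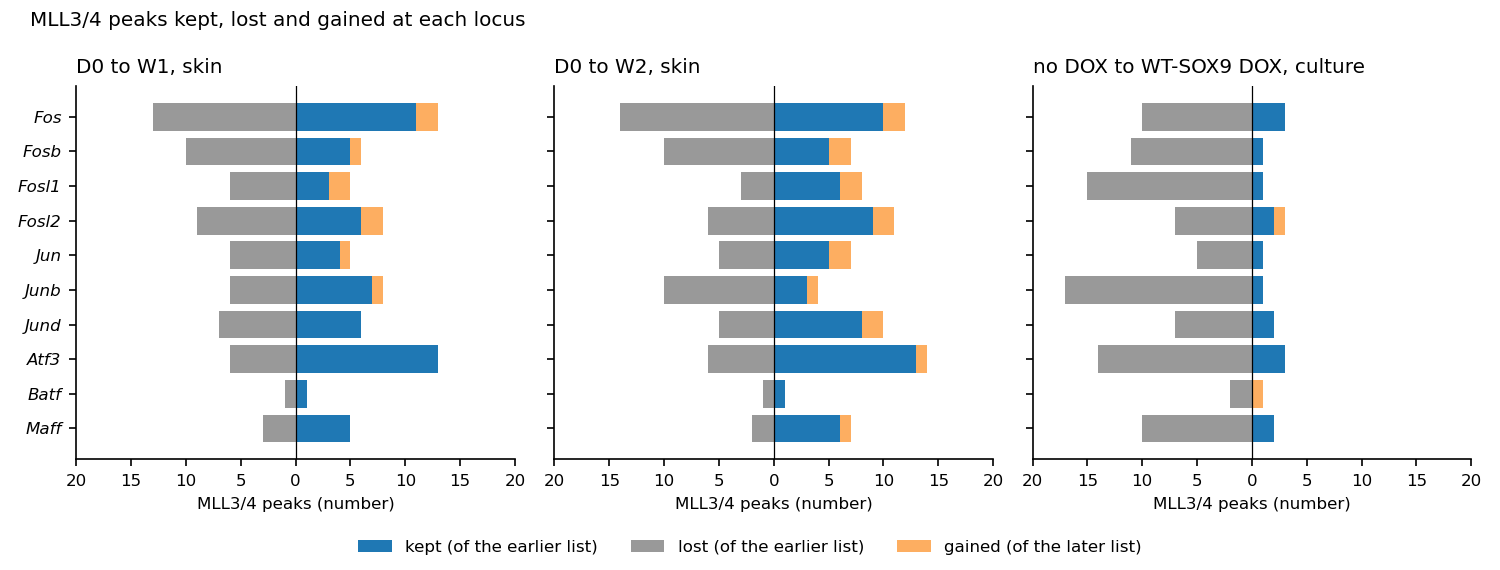
MLL3/4 peaks of each locus that were lost (grey, left), kept (blue) or gained (orange) from D0 to W1, from D0 to W2, and in cultured keratinocytes from no DOX to WT-SOX9 with DOX (x axis, number of peaks). Lost and kept peaks are counted in the earlier list and gained ones in the later, and *Jund*, *Atf3*, *Batf* and *Maff* gained 0 peaks at W1.

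By gene, *Fos* lost 13 and *Fosb* 10 of their D0 peaks at W1, the most of the 10 genes. *Atf3* kept 13 of 19 and *Maff* 5 of 8. The highest lost peak by total signal was at *Fos*, 16.5 kb downstream of its start (chr12:85489918-85490658), followed by peaks 17.4 kb upstream of *Jund* (chr8:70681260-70681662) and 3.39 kb upstream of *Maff* (chr15:79343007-79343464). No SOX9 peak of W1 lay on any of these 3. The first of them was on MLL3/4 again at W2 and lies in the site *Fos*-s9, where SOX9 was listed at W2 (2368 RPKM) and W6 (2645 RPKM), and the other two had neither MLL3/4 nor SOX9 at W2. The start peaks of *Fosl2* (chr5:32135626-32136053) and *Fosl1* (chr19:5447388-5447798) were the highest lost ones of their loci and did carry SOX9 at W1. At *Junb*, the highest peak lost by W2 lay 12.3 kb upstream in the promoter of *Hook2* (chr8:84990353-84991147), with SOX9 at W2.

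The gained peak of highest total signal at W1 was 9.75 kb downstream of the *Fos* start (chr12:85483323-85483708), at rank 18968 of 31539. At W2 the highest was 7.42 kb upstream of *Fosb* (chr7:19317343-19318184), at rank 6428 of 29281, at the edge of the lasting SOX9 site *Fosb*-s6 but on no SOX9 peak of W2. *Fosl2* gained a peak at W2 that coincided with SOX9, 1.77 kb upstream of its start (chr5:32133957-32134134). At W1, 1 of 9 gained peaks lay on SOX9 (11.1%, 95% CI 1.99 to 43.5), against 30.5% of gained peaks of the genome, and at W2 4 of 15 (26.7%, 95% CI 10.9 to 52.0), against 38.5%.

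SOX9 lay on kept and lost MLL3/4 peaks of the AP-1 loci at shares near those of all peaks. Of the 60 kept peaks of the W1 list, 33 carried SOX9 at W1 (55.0%, 95% CI 42.5 to 66.9), as did 55.0% of kept peaks in the genome. Of the 67 lost peaks, 7 did (10.4%, 95% CI 5.15 to 20), against 7.58%. At W2 it was 44 of 65 kept peaks (67.7%, 95% CI 55.6 to 77.8), against 58.4%, and 9 of 62 lost ones (14.5%, 95% CI 7.83 to 25.3), against 9.06%. Of the D0 peaks at promoters, 19 of 35 were lost at W1 (54.3%, against 52.7% in the genome), and of the others 48 of 93 (51.6%, against 47.3%). Starts with an MLL3/4 peak within 1 kb were those of 8 members at D0 (31.0% of protein-coding genes), 5 at W1 (19.4%) and 7 at W2 (21%). The 3 missing at W1 were *Fosl1*, *Fosl2* and *Jund*, and all 3 were back at W2, when *Fos* was missing.

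Other genes of the pathway, taken from 3 lists made by role, were less uniform. Their loci were not fully separate from those of the members. *Jdp2*, a relative, lies in the *Batf* locus, and the sites *Atf3*-s9 and *Atf3*-s10 were nearest to the start of the relative *Batf3*. Of 17 AP-1 relatives such as *Bach2* and *Nfe2l2*, 10 had fewer MLL3/4 peaks at W1 than at D0 and 5 had more, where 67.3% of protein-coding genes with a D0 peak had fewer and 16.8% of protein-coding genes had more, and their W1 peaks came to 91.5% of those of D0. Of 14 genes that act upstream of AP-1, among them kinases and *Egr1*, 10 had fewer and 2 more, at 64.4%. Of 10 genes known as AP-1 targets, 4 had fewer and 3 more, at 94.2%. At W2, 16 of the 17 relatives, 12 of the 14 upstream genes and 7 of the 10 targets had a SOX9 peak, against 57.5% of protein-coding genes. Late SOX9 sites stood at 9, 10 and 5 of them, in that order, against 33.1%.

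In cultured keratinocytes the MLL3/4 peaks of the AP-1 loci were partly the same ones. Of the D0 peaks, 74 of 128 overlapped a peak of WT-SOX9 cells without DOX (57.8%, 95% CI 49.2 to 66.0), against 40.4% of the whole D0 list. Without DOX the members had 114 MLL3/4 peaks, with WT-SOX9 induced 19, with dTA 63 and with dHMG 79. These were 16.7%, 55.3% and 69.3% of the no-DOX number, and the whole lists came to 31.0%, 76.4% and 68.6%. With lists of equal length, where the whole lists are equal in number by construction, they were 55.9%, 94.1% and 135%. The direction against no DOX for dHMG, and the size for the others, thus rested on the length of the lists. Beside the whole lists, WT-SOX9 and dTA were lower and dHMG higher in both settings.

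With WT-SOX9 induced, 10 of 10 members had fewer MLL3/4 peaks than without DOX, against 90.8% of protein-coding genes with a peak before. With dTA it was 10 of 10, against 65.0%, and with dHMG 8 of 10, against 63.1%, with *Fosl2* and *Batf* equal. *Junb* went from 18 to 1 with WT-SOX9, 12 with dTA and 14 with dHMG. *Fosl1* went from 16 to 1, 6 and 10, and *Atf3* from 17 to 3, 12 and 10. *Fos* went from 13 to 4, 5 and 9, *Fosb* from 12 to 1, 9 and 9, and *Fosl2* from 9 to 3, 5 and 9. *Jun* went from 6 to 1, 1 and 1, so that its locus did not separate the 3 forms. After induction of WT-SOX9 an MLL3/4 peak was still listed at the starts of *Jun* and, by RefSeq, *Atf3*, and no longer at those of *Fosl1*, *Fosl2*, *Junb*, *Jund* and *Maff*. By GENCODE, 6 members had such a peak without DOX and 1 with WT-SOX9, against 19.1% and 3.97% of protein-coding genes. *Jund* went from 9 to 2, 3 and 7, *Maff* from 12 to 2, 9 and 8, and *Batf* from 2 to 1, 1 and 2.

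With WT-SOX9, 98 of 114 peaks were lost (86.0%, 95% CI 78.4 to 91.2), against 82.0% of the whole list, and 2 of 19 were gained (10.5%, 95% CI 2.94 to 31.4), against 41.8%. With dTA 50.9% were lost (95% CI 41.8 to 59.9), against 44.3%, and 11.1% gained (95% CI 5.49 to 21.2), against 26.1%. With dHMG 36.8% were lost (95% CI 28.6 to 46.0), against 43.5%, and 8.86% gained (95% CI 4.36 to 17.2), against 16.7%, a share that the interval holds. With lists of equal length the loss was 23.5% with dTA, against 33.4%, and 8.82% with dHMG, against 27.2%, and the dHMG gain 32.6%, against 26.1%. The dHMG gain was also 20% in the upper part of the lists by total signal and 2.86% for peaks nearest to the member. Per Mb, the gained peaks were 1.77 at the loci and 1.62 in the genome with WT-SOX9, 6.18 and 2.48 with dTA, and 6.18 and 1.43 with dHMG. The gained peaks with WT-SOX9 lay 49.5 kb upstream of *Batf* (chr12:85637050-85637389), under a MYC-tag peak, and 25.3 kb downstream of the *Fosl2* start (chr5:32160824-32161186). The kept peaks of highest total signal were those upstream of *Fos* at the site *Fos*-s3 and in *Atf3* at *Atf3*-s5, both listed in vivo from W1 to W12.

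The MYC tag had few peaks at the AP-1 loci in culture, where 5 were listed without DOX, 3 after induction of WT-SOX9, 11 of dTA and 16 of dHMG. In the same order these were 4.41, 2.65, 9.71 and 14.1 per Mb of the loci, against 0.823, 2.45, 4.16 and 1.46 per Mb of the genome. Members with at least 1 peak were 4 without DOX (20.1% of protein-coding genes), 3 with WT-SOX9 (32.0%), 6 with dTA (41.0%) and 9 with dHMG (29.3%). With 10 kb to each side they were 2, 1, 1 and 6, and with lists of equal length 4, 1, 1 and 7, so that the order of dTA against WT-SOX9 and no DOX rested on these choices. The form without a DNA-binding domain thus had a listed peak at more AP-1 loci than WT-SOX9, from a list of 3980 peaks against 6671. The paper reports that this form failed to bind DNA. A SOX word stood in 0 of the 16 dHMG windows and 1 of the 3 of WT-SOX9, against 5.28% and 34.3% of their lists. Whether the dHMG peaks are background of the tag antibody was not tested. The peaks of the loci were shallow in most lists, at 9 to 12 fragments without DOX, 13 to 17 with WT-SOX9, 11 to 38 with dTA and 8 to 18 with dHMG. Those of dHMG lay at the *Fos* start (1982.5 RPKM) and the *Jun* start (2230 RPKM), among other places, and 12 of the 16 were on MLL3/4 peaks of cells without DOX (75.0%, 95% CI 50.5 to 89.8), against 52.1% of the dHMG list. The no-DOX list of replicate 1 alone, which reaches down to 791 RPKM and 2 fragments, had a peak at 8 members, and at 4 when kept above 1800 RPKM like the pooled list.

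The 3 WT-SOX9 peaks lay in an exon of *Fosb* (2298 RPKM), 18.5 kb upstream of *Fos* at the site *Fos*-s4 (2134 RPKM) and 49.5 kb upstream of *Batf* (2791 RPKM). The highest MYC-tag peak of the loci belonged to dTA, at *Atf3*-s5 (7794 RPKM), and the next, in the promoter of *Ercc1* 34.3 kb upstream of *Fosb*, had 5128 RPKM. Of the 13 late sites of the skin, 1 carried a WT-SOX9 peak, 3 a dTA peak and 2 a dHMG peak. The matching shares of all late SOX9 sites were not computed, so that these counts only describe the 13. The *Fosb* exon peak of WT-SOX9 lay on the late site *Fosb*-s7, and the dTA peaks on *Fosb*-s2 in the *Ercc1* promoter, *Jun*-s1 (3897 RPKM) and *Jun*-s4 (2256 RPKM). In total 2 of 3 WT-SOX9, 6 of 11 dTA and 11 of 16 dHMG peaks lay on SOX9 sites of the skin, as did all 5 of cells without DOX, against 54.6%, 46.0%, 41.3% and 58.3% of the whole lists.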

How the data were processed

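CNR peaks came from 32 of 41 mouse samples, 2 per group. The other 9 samples (CNR of JUN and of chromatin remodelers) were not analysed here. Per the study's methods, the authors trimmed reads with Skewer, aligned them with Bowtie2 2.2.9 to mm10, removed duplicates with Picard, used SAMtools 1.3.1 to keep fragments of up to 120 bp, scaled coverage with deepTools 3.1.2 and called peaks with SEACR (stringent, 0.01). The deposited SOX9 and MYC-tag lists give the maximum in RPKM and were kept by the authors where that score was above 1800. The deposited pooled MLL3/4 lists hold coverage as whole numbers with no scaling, and a total signal per peak. Counting fragments from the smallest step in RPKM gave the depth of each SOX9 and MYC-tag list.

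The 16 pooled lists were analysed with Python 3.11.15, pandas 2.3.3, numpy 2.4.6, scipy 1.17.1 and pysam 0.24.0, and plotted with matplotlib 3.10.9. Genes came from GENCODE vM21 and promoters from RefSeq, both on GRCm38.p6 (mm10). A peak belonged to a gene where it overlapped the gene body or 50 kb to either side by 1 bp. SOX9 peaks of the 5 lists that overlapped were merged into sites, numbered along each gene in the direction of transcription. A site was late when first listed at W6 or W12. An MLL3/4 peak was kept, lost or gained by overlap of 1 bp between lists. A promoter place lay within 1 kb of a gene start. The intersection and counting steps were tested on simulated peaks. The genes named are all 10 members, with the highest site of each, all late and lasting sites, and the highest lost, kept and gained MLL3/4 peaks.

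With 1 pooled list per group no test was made. Values of all protein-coding genes or all peaks stand beside those of the members where they were computed. They were not computed for counts of members under the alternatives. The members and gene lists were chosen with earlier results of these data known. Alternatives in locus size, nearest gene, merging, peak height, list length, overlap and word window were tried, gained peaks per Mb were added after seeing the data, and the replicate 1 lists of cells without DOX were used once.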

Additional observations from a re-analysis of the deposited data

How the results depend on the processing

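Values were recomputed under those of 12 alternatives that applied to them, giving 283 values, of which 214 stayed close, 68 moved and 1 turned. The cause of these moves was not tested. The value that turned was the dHMG share of no-DOX MLL3/4 peaks with lists of equal size, where whole lists are equal in number by construction. The MLL3/4 peaks of W1 stayed between 45.2% and 65.6% of the D0 number. Counting only peaks above 3600 RPKM left 0 members with SOX9 at D0, 5 at W1 and 0 at W12, 6 with more peaks at W2 than at W1, W12 peaks at 0% of W2, members with a MYC-tag peak at 0 (no DOX), 0 (WT-SOX9), 3 (dTA) and 3 (dHMG), 2 with a late site, and 87.5%, 75.0% and 79.2% of sites on MLL3/4 of D0, W1 and W2. With 10 kb to each side, 4 members had SOX9 at W12, W12 peaks were 16.7% of W2, MYC-tag members were 2 (no DOX), 1 (WT-SOX9) and 1 (dTA), 3 had a late site, and 58.9% (W2) and 91.7% (WT-SOX9) of MLL3/4 peaks were lost. With only peaks nearest to the member, MYC-tag members were 2 (no DOX), 3 (dTA) and 5 (dHMG), 60.0% were lost with dTA, and 2.86% gained with dHMG. In the upper part of each list by total signal, 4 members had SOX9 at W12, W12 peaks were 12.1% of W2, MYC-tag members were 1 (WT-SOX9) and 3 (dTA), 20% were gained with dHMG, 8.57% of sites at 3 members were late, and 74.3% lay on W2 MLL3/4.

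With lists of equal size, and so whole lists equal in number, W12 peaks were 54.3% of W2, and MYC-tag members were 1 (WT-SOX9) and 1 (dTA). MLL3/4 peaks in culture came to 55.9%, 94.1% and 135% of no DOX with WT-SOX9, dTA and dHMG. In that order 61.8%, 23.5% and 8.82% were lost, and 32.6% were gained with dHMG. Merging peaks within 500 bp put the loss at W1 at 43.0%. Windows of 100 bp to each side gave the AP1 word in 32.4% of sites (28.9% of all SOX9 sites), and whole peaks gave it in 41.9% (39.9%) and the SOX word in 36.5% (47.2%). Without replicate 2, 8 members had a MYC-tag peak in cells without DOX, from a list with no 1800 RPKM limit, and 4 with that limit, an alternative chosen after seeing the data. No paired analysis was possible because each group has 1 list pooled over its samples. The titles of the WT-SOX9 DOX samples of MLL3/4 CNR give replicates 1 and 2, while both descriptions give 2. Peaks below the 1800 RPKM limit are unseen, so that a site missing from a list was not detected at that depth rather than absent, and how deep the MLL3/4 lists are is unknown.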
